A study of Mus musculus with 35 samples.

Results

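The genes described here are 8 genes of the anterior pituitary, the gland that hangs below the hypothalamus: the hormone genes Gh, Prl, Cga, Lhb, Fshb and Tshb and the transcription factor genes Pitx1 and Pou1f1. They were taken by exact gene name from the count table of every library and are 8 of the 49568 gene names counted. They were followed in 35 libraries of polyA RNA from mouse hypothalamus, as a reading of how much pituitary RNA each dissected block held. The data go against that label in part. Gh and Pou1f1 never exceeded 2 counts in a library, and Prl was at 0 in 31 libraries and between 4 and 16 counts in the other 4, so the set is called the 8 pituitary genes below.

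All mice were male and of strain B6/J, and all tissue was taken at Zeitgeber time 16, counted in hours from lights-on. There were 10 control libraries from mice with free access to food and 10 from controls without food from Zeitgeber time 0, that is for 16 h. A further 5 fasted mice carried the label Per2 knockout, and the PER2 mutation S662D was present in 5 fed and 5 fasted mice. PER2 is a repressor of the circadian clock. No agent besides food withdrawal is named, the labels give no age, and they do not say how the Per2 alleles were made or whether they act in every tissue. The block was cut by coordinates, to -3 mm on the anteroposterior axis, 1.5 mm to each side of the midline and 4 to 7 mm deep.

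The anterior pituitary makes its hormones in separate cell types. Gh encodes growth hormone and Prl prolactin, and the cells that make them, like the thyrotropes, depend on the factor POU1F1. Thyroid-stimulating hormone, luteinising hormone and follicle-stimulating hormone each pair 1 shared alpha subunit, encoded by Cga, with a beta subunit of their own, encoded by Tshb, Lhb and Fshb, and PITX1 is a factor of the pituitary and oral ectoderm from early development. The pars tuberalis, a thin sheet of pituitary tissue on the underside of the hypothalamus at the median eminence, is known for expressing Cga and Tshb and for acting through thyroid hormone enzymes in the tanycytes that line the third ventricle.

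Of the genes that varied together and those that did not, the 250 bases upstream of the start are shown for 4, from RefSeq on GRCm38.p6, the same assembly as mm10, on the gene's strand. Capitals mark matches to TATNCAT, a form of the POU1F1 site, on either strand.
Cga, chr4:34893529-34893778, plus strand: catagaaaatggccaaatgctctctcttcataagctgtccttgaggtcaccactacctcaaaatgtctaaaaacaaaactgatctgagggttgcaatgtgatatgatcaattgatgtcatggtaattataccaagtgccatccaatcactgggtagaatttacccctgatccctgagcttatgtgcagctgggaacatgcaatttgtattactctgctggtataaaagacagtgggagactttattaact
Fshb, chr2:107059652-107059901, minus strand: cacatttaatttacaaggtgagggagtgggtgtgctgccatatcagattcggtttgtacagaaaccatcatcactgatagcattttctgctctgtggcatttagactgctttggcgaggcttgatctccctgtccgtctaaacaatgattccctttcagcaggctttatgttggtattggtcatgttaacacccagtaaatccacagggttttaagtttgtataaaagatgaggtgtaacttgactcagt
Tshb, chr3:102782715-102782964, minus strand: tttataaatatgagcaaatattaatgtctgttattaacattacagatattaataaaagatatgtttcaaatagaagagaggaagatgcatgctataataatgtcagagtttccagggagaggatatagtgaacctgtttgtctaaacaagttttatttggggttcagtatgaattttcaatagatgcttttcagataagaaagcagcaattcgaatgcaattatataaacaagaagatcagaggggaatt
Prl, chr13:27057320-27057569, plus strand: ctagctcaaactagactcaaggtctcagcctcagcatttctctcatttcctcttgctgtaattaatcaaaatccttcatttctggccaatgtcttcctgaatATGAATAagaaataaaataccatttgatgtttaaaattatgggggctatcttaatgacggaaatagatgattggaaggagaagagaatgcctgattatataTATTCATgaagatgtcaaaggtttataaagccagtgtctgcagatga
TATNCAT was found in 7.92% of the 32851 windows of this length and TAATCC, a PITX site, in 6.25%. The 2 matches in the Prl window lay at positions -148 to -142 and -47 to -41 from the start, and the Pou1f1 window, not shown, held 1. The windows of Cga, Lhb, Fshb and Tshb held neither motif. A match or its absence describes these letters only.

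Libraries held 17959586 to 37027342 counts assigned to genes, and between 6.24% and 9.08% of them fell on mitochondrial genes. A total of 3 counts, the limit that a count of 0 allows, equalled 0.081 to 0.167 CPM (counts per 1000000 assigned counts), covering counting error only. All 12 hypothalamic marker genes, among them Pmch, Hcrt, Agrp and Nkx2-1, were counted in every library. The targeted gene did not separate the labelled knockout: Per2 stood at 30.3 ± 2.00 CPM (SD, n = 5) there, at 29.0 ± 2.45 in fasted controls (n = 10) and at 19.9 ± 2.38 in fasted S662D mice (n = 5). The counts do not show which exons the allele lacks, so these are called the libraries labelled Per2 knockout. Genotype and the range of library numbers in the file headers cannot be told apart for the labelled knockout and S662D groups. Nothing in the labels says that libraries of a group came from separate litters or days, so p-values measure the spread between these samples.

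Gh (chr11:106300271-106301865, minus strand), the growth hormone gene, had 2 counts in all 35 libraries together. Against 743884122 counts in total this was 0.00269 CPM (95% exact Poisson interval 0.000326 to 0.00971, counting error only). The 2 counts lay in labelled knockout replicate 3 and fed S662D replicate 1, and the other 33 libraries were at 0. Pou1f1 (chr16:65520511-65535005, plus strand) had 13 counts, spread over 10 libraries with at most 2 in any of them. Prl (chr13:27057570-27065204, plus strand) had 33 counts, in 4 libraries. Fasted control replicate 1 had 16 of them, at 0.797 CPM. Fasted S662D replicate 1 had 9, at 0.305 CPM, and labelled knockout replicates 2 and 3 had 4 each, at 0.189 and 0.217 CPM. All fed libraries were at 0 for Prl. None of these 3 genes passed the filter on low counts for edgeR's test. In permutation tests over the 6 pairwise comparisons the lowest unadjusted p among the 3 was 0.358 (exact, Pou1f1 in fasted S662D mice against fasted controls).

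Cga (chr4:34893779-34907370, plus strand), the shared alpha subunit gene, had 392 counts in all. In the labelled knockout it stood at 1.82, 1.56, 0.869, 1.50 and 1.68 CPM, from 16 to 38 counts. In fasted controls it ranged from 0 to 1.17 CPM with a median of 0.0779, and in fed controls from 0 to 1.90 with a median of 0.0501. Fed S662D libraries were at 0, 0.918, 0, 0 and 0.356 CPM, and fasted S662D libraries at 1.52, 0, 0.134, 0 and 0. All 5 labelled knockout libraries thus held Cga, while 4 of 10 fed controls, 4 of 10 fasted controls, 3 of 5 fed S662D and 3 of 5 fasted S662D libraries had none. The groups overlapped all the same: 2 fed controls, 2 fasted controls, 1 fed S662D and 1 fasted S662D library reached the lowest labelled knockout library. Some 32.0% of the exon bases of Cga are shared with Platr9, a non-coding RNA gene counted at 0 in every library, and with no strand option the reads of the shared bases cannot be assigned to either.

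Pitx1 (chr13:55825051-55836192, minus strand), the transcription factor, had 189 counts in all. The labelled knockout libraries were at 0.483, 0.284, 0.163, 0.789 and 0.271 CPM. Fasted controls ranged from 0 to 0.548 CPM with a median of 0.0269, and fed controls from 0 to 1.32 with a median of 0.0532. Fed S662D libraries were at 0.253, 0.944, 0.0552, 0.108 and 0.203 CPM and fasted S662D libraries at 0.813, 0.0387, 0.0892, 0.0472 and 0. No labelled knockout or fed S662D library was at 0, but the highest single value was that of fed control replicate 6, and every pair of groups overlapped.

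Fshb (chr2:107056140-107059656, minus strand), the beta subunit of follicle-stimulating hormone, had 83 counts and did not pass the filter on low counts. In the labelled knockout it was at 0.107, 0.568, 0.272, 0.118 and 0.271 CPM, from 2 to 12 counts. Fasted controls ranged from 0 to 0.199 CPM with a median of 0, and fed controls from 0 to 0.792, also with a median of 0. Fed S662D libraries were at 0.152, 0.189, 0, 0 and 0 CPM, and of the fasted S662D libraries only replicate 1 had any, at 0.373. Every labelled knockout library held Fshb, against 4 of 10 fasted controls and 1 of 5 fasted S662D libraries, with overlapping values.

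Lhb (chr7:45420820-45421897, plus strand), the beta subunit of luteinising hormone, was counted in all 35 libraries, from 3 to 36 counts. The labelled knockout libraries were at 0.804, 0.615, 0.706, 0.631 and 0.868 CPM. Fasted controls ranged from 0.215 to 0.715 CPM with a median of 0.485, and fed controls from 0.166 to 0.689 with a median of 0.520. Fed S662D libraries were at 0.354, 0.971, 0.276, 0.323 and 0.864 CPM, and fasted S662D libraries at 0.745, 0.193, 0.134, 0.331 and 0.504. The labelled knockout libraries lay in the upper part of the range, and 3 of 10 fasted controls and 1 of 5 fasted S662D libraries reached the lowest of them. Lhb shares 20.4% of its exon bases with Ruvbl2, a widely expressed gene counted at 28.2 ± 2.52 CPM over the 35 libraries (SD). Reads of the shared bases cannot be assigned to either gene, and their effect on the Lhb count was not tested.

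Tshb (chr3:102775465-102782718, minus strand), the beta subunit of thyroid-stimulating hormone, had the most counts of the 8, with 1383, and was present in every library. The labelled knockout libraries were at 1.29, 2.32, 1.52, 2.05 and 2.23 CPM. Fasted controls ranged from 1.40 to 2.64 CPM with a median of 1.80, and fed controls from 1.27 to 3.44 with a median of 1.68. Fed S662D libraries were at 1.52, 1.78, 2.10, 1.68 and 2.24 CPM, and fasted S662D libraries at 2.34, 2.24, 1.74, 1.23 and 1.54. The 5 groups covered nearly the same range. Libraries with no Cga held as much Tshb as many of those with Cga. The counted exons of Tshb span 4555 bases, of which 9.09% code for protein, so its count is not a count of hormone-coding sequence alone.

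**Figure D1:**
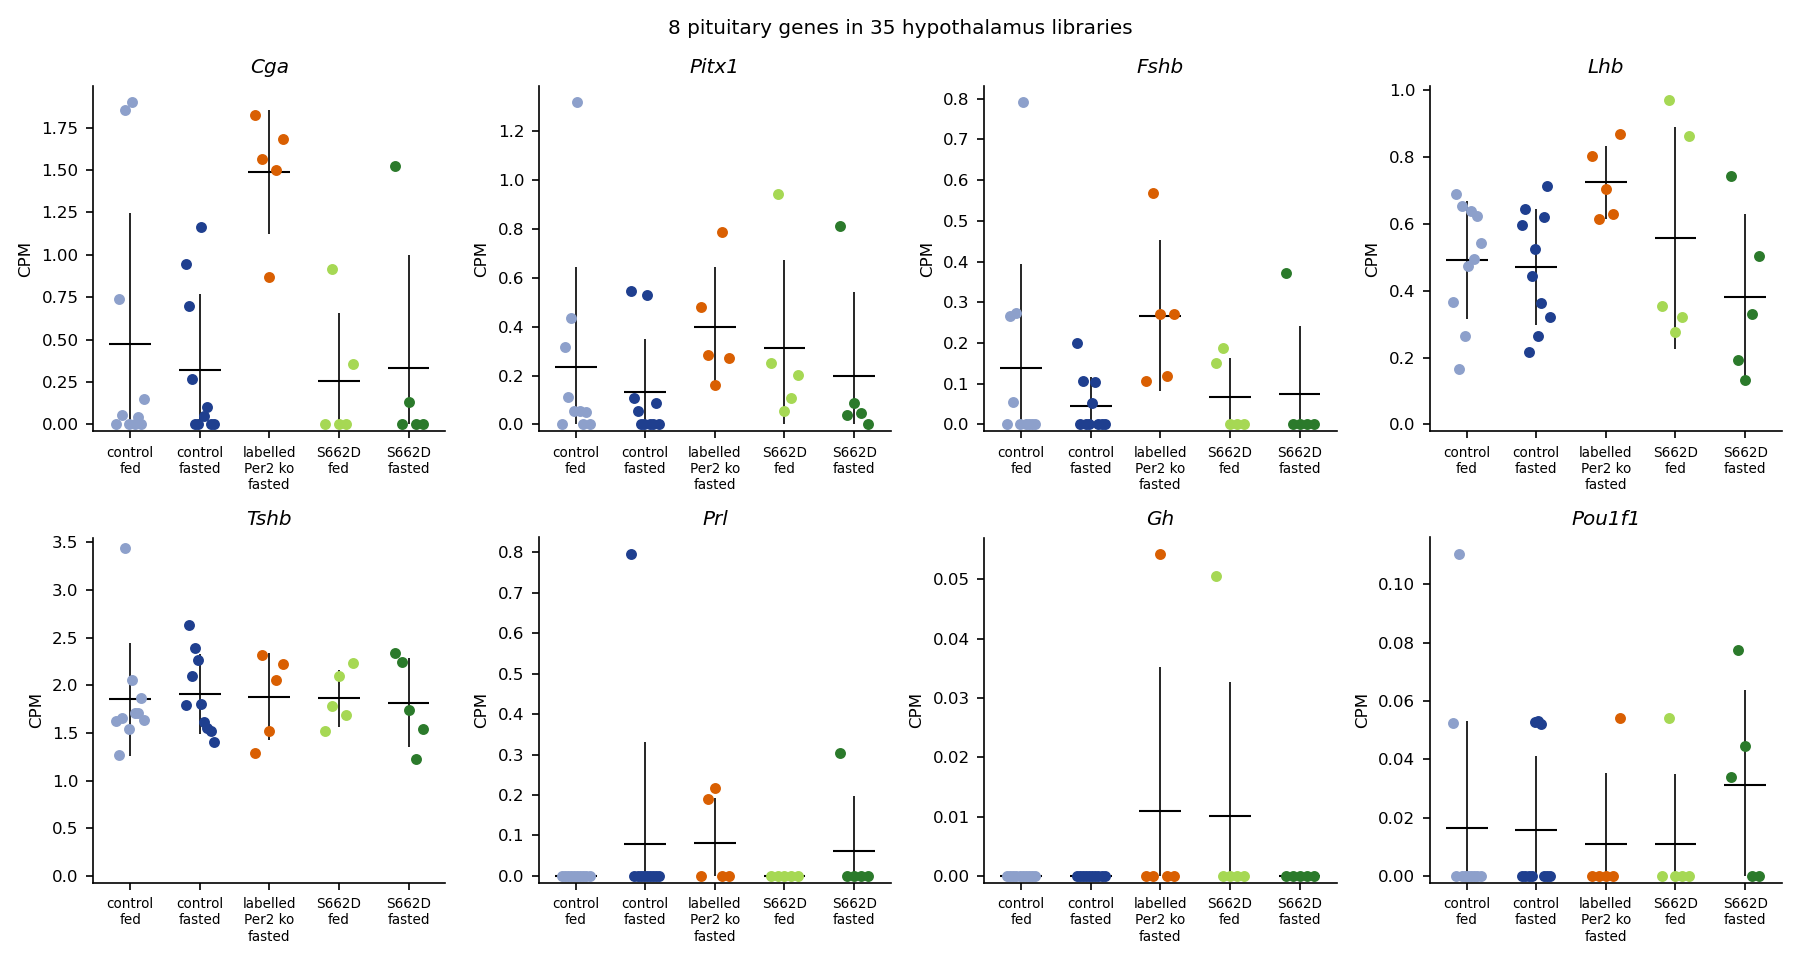
Level of each of the 8 genes (y axis, CPM, linear, a different range in each panel) in every library (points) of the 5 groups (x axis), with the group mean (horizontal bar) and SD (vertical bar, stopped at 0). Cga lies between 0.869 and 1.82 CPM in the 5 labelled knockout libraries and between 0 and 1.90 in the other groups, Tshb covers a like range in all groups, and Gh and Pou1f1 are at 0 in 33 and 25 of the 35 libraries.

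Per kilobase of exon, the scale on which genes can be compared, the labelled knockout order was Cga at 1.56 ± 0.385 CPM per kilobase (SD, n = 5), Lhb at 1.07 ± 0.162, Tshb at 0.413 ± 0.0995, Fshb at 0.167 ± 0.116 and Pitx1 at 0.150 ± 0.0930. Fshb and Pitx1 did not differ beyond their spread. In fasted controls the order was Lhb at 0.696 ± 0.257 (n = 10), Tshb at 0.419 ± 0.0917 and Cga at 0.339 ± 0.466, with Pitx1 and Fshb lower still, and there Tshb and Cga lay within 1 SD of each other. Cga thus led the order in the labelled knockout. In fasted controls its mean came below that of Lhb, though the Lhb mean lay within 1 SD of Cga.

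The labelled knockout was compared with fasted controls to ask whether the genotype label goes with another level of these genes. None of the 4 members that passed the filter (Cga, Lhb, Tshb and Pitx1, of 8) was called in edgeR's quasi-likelihood test at an adjusted p below 0.05, beside 0.0277% of all 18063 genes tested. Cga was fitted 2.19 higher on the log2 scale (SE 0.94, fold 4.55, unadjusted p = 0.0265, adjusted p = 0.817), with means of 1.49 ± 0.367 CPM (SD, n = 5) and 0.324 ± 0.445 (n = 10). Pitx1 was fitted 1.57 higher (SE 0.95, adjusted p = 0.855) and Lhb 0.59 higher (SE 0.32, adjusted p = 0.842). Tshb differed by -0.01 (SE 0.19, 95% interval -0.40 to 0.38, adjusted p = 0.997), an interval narrow enough to leave out a difference of 1.5-fold in either direction. Cga was therefore the 1 member of 4 below an unadjusted p of 0.05, where 6.07% of all genes tested lay. In the fit without the filter, Fshb was 2.38 higher (SE 1.05, adjusted p = 0.704). In bulk tissue, fewer cells of a type and less RNA per cell cannot be told apart.

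An exact two-sided permutation test of log2(CPM + 0.5) over the 3003 splits of these 15 libraries gave an unadjusted p of 0.0020 for Cga, 0.0047 for Fshb, 0.0107 for Lhb and 0.0506 for Pitx1. On that scale, which understates changes of low genes, the differences were 1.41, 0.47, 0.35 and 0.53. Of the 18063 tested genes, which leave out Fshb, 5.77% had an unadjusted permutation p below 0.05. Adjusted over all 18063 genes, Cga had p = 0.681 in this exact permutation test, with 41 genes at a lower p and 0 genes called. At an unadjusted p below 0.05 the same test held 1042 genes, and edgeR called 5 genes. No member's CPM range stood wholly above that of the fasted controls, as that of 0.0166% of genes did.

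Against fasted S662D mice the labelled knockout again had 0 of 4 tested members called, beside 7.34% of all genes. Cga was fitted 2.06 higher (SE 1.08, adjusted p = 0.258), Pitx1 0.97 higher (SE 0.99, adjusted p = 0.610), Lhb 0.85 higher (SE 0.37, unadjusted p = 0.0273, adjusted p = 0.159) and Tshb 0.05 higher (SE 0.21, adjusted p = 0.924). Lhb was the 1 of 4 below an unadjusted p of 0.05, where 22.4% of all genes lay. The exact permutation test, which here cannot go below p = 0.00794, gave p = 0.0238 for Cga, p = 0.0317 for Lhb and p = 0.0714 for Fshb, unadjusted, and 16.4% of all tested genes lay below 0.05 in it. This comparison turned on 1 library: without fasted S662D replicate 1, Cga was 5.40 higher (adjusted p = 0.0279), Lhb 1.24 higher (adjusted p = 0.0390) and Pitx1 3.21 higher (adjusted p = 0.116). In that fit 2 of 4 members were called, beside 10.2% of the 18213 genes tested. Without labelled knockout replicate 4, Pitx1 was 0.52 higher. Markers of other regions moved in the same comparison. Of 5 thalamic markers, all fitted lower, 2 were called, Tcf7l2 0.34 lower and Lef1 0.40 lower. Of the 12 hypothalamic markers 8 were fitted higher and 4 lower, from -0.25 for Avp to 0.46 for Pmch, and 2 were called, Pmch and Hcrt (0.45 higher). Their summed levels overlapped, at 675 to 834 CPM in the labelled knockout and 815 to 974 in fasted S662D for the thalamic genes, and at 622 to 810 and 557 to 770 for the hypothalamic genes, and their part in the result was not tested.

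Fasting left the 4 tested members without a call in either genotype. In controls, 0 of 4 tested members were called beside 3.88% of all genes, with fitted differences, fasted against fed, of -0.53 for Cga (SE 0.94), -0.75 for Pitx1 (SE 0.90), -0.05 for Lhb (SE 0.29) and 0.04 for Tshb (SE 0.16). In S662D mice, 0 of 4 were called beside 2.64% of all genes, with 0.21 for Cga (SE 1.27), -0.76 for Pitx1 (SE 0.98), -0.54 for Lhb (SE 0.37) and -0.02 for Tshb (SE 0.21). Without the filter, edgeR's test put Prl 3.88 higher in fasted than in fed controls (SE 1.66, adjusted p = 0.422). That value rests on fasted control replicate 1 alone. The signs for Cga and Pitx1 turned with single libraries: without fed control replicate 6 the control differences were 0.06 and 0.28, and without fasted S662D replicate 1 that of Cga in S662D mice was -3.13. Whether the fasting responses of the genotypes differ was tested as an interaction, and 0 of 4 members were called beside 0% of all genes, with 6.37% of genes below an unadjusted p of 0.05 and none of the 4 members among them.

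S662D against control gave 0 of 4 members called in fed mice, beside 4.69% of all genes, and 0 of 4 in fasted mice, beside 5.57%. The fitted differences in fed mice were -0.61 for Cga (SE 1.11), 0.62 for Pitx1 (SE 0.86), 0.23 for Lhb (SE 0.32) and 0.00 for Tshb (SE 0.19). Without fed S662D replicate 2 those of Cga and Pitx1 were -2.41 and -0.57, and without fed control replicate 6 they were -0.02 and 1.65. In fasted mice they were 0.12 for Cga (SE 1.11), 0.60 for Pitx1 (SE 1.03), -0.26 for Lhb (SE 0.34) and -0.06 for Tshb (SE 0.18), and without fasted S662D replicate 1 those of Cga and Pitx1 were -3.22 and -1.64. Over all 5 groups at once, the adjusted p was 0.287 for Cga, 0.373 for Lhb, 0.639 for Pitx1 and 0.998 for Tshb in edgeR's test, and 0 of 4 were called beside 20.1% of all genes. For Cga and Pitx1 the standard errors lay between 0.86 and 1.27 on the log2 scale in the 6 pairwise comparisons, and a difference of 2-fold in these genes was not detectable here.

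**Figure D2:**
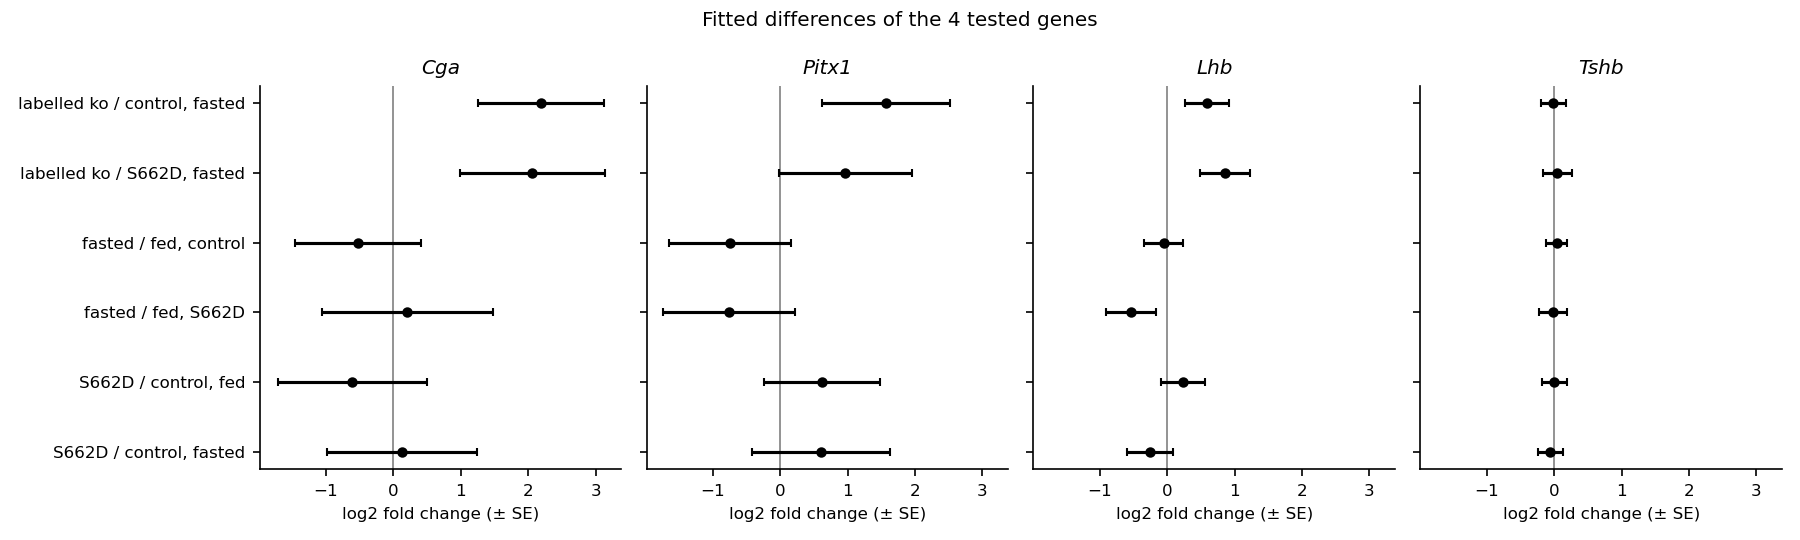
Fitted log2 fold change (x axis) of the 4 tested genes in the 6 pairwise comparisons (y axis), as points with bars of 1 SE. Tshb sits near 0 in every comparison with short bars, while the bars of Cga and Pitx1 are wide, and Cga is 2.19 and 2.06 higher in the labelled knockout against fasted controls and fasted S662D mice.

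The members were then compared with each other across the 35 libraries, as log2 CPM with a prior count of 2. Over all libraries Cga, Pitx1 and Fshb rose and fell together. Cga and Pitx1 had Pearson's r = 0.832 and Spearman's rho = 0.758, Cga and Fshb 0.788 and 0.790, and Fshb and Pitx1 0.769 and 0.766. Each of these had a permutation p of 1e-05, the smallest that 100000 resamples can give, and 9.33e-05 after Benjamini-Hochberg adjustment over the 28 pairs. Without the 2 libraries farthest from the median of the first gene, r was 0.812, 0.759 and 0.745. On deviations from the group means, pooled over the 5 groups, r was 0.868, 0.732 and 0.753. The 5 labelled knockout libraries, too few for a correlation of their own, did not share the pattern for Fshb: replicate 1, the highest of them in Cga, was the lowest in Fshb, and replicate 4, the highest in Pitx1, was the next lowest in Fshb. The libraries did not fall into separate clusters, since the largest gap in Cga was 0.344 of its range of 1.90 CPM.

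In 3 sets of libraries outside the labelled knockout the joint variation was of the same sign but less even. In control replicates 1 to 5 of both feeding states (n = 10), Cga and Pitx1 had r = 0.886 (permutation p = 0.00084) and rho = 0.931 (permutation p = 0.00046). In control replicates 6 to 10 (n = 10), r was 0.864 (permutation p = 0.0179) and rho 0.220 (permutation p = 0.535), and fed control replicate 6 was the highest there in both genes. In the 6 S662D libraries whose library number has an additional digit, r was 0.943 (exact permutation p = 0.0667) and rho 0.676 (exact permutation p = 0.20). For Cga and Fshb, r was 0.807, 0.771 and 0.930 in these sets and rho 0.860, 0.669 and 0.775, with permutation p = 0.0111, 0.0183 and 0.167 for r, the last of them exact. Adjusted over the 30 relations within sets, the permutation p of rho was 0.0138, 0.73 and 0.459 for Cga and Pitx1. For Cga and Fshb it was 0.0496, 0.395 and 0.459.

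The libraries high in these genes came from every group. Fed control replicate 6 had 1.90 CPM of Cga, 1.32 of Pitx1 and 0.792 of Fshb, the highest of each among all 35. Fasted S662D replicate 1 had 1.52, 0.813 and 0.373 CPM, where the other 4 libraries of its group had at most 0.134, 0.0892 and 0. Fed S662D replicate 2 had 0.918, 0.944 and 0.189 CPM, and fasted control replicate 1 had 0.946, 0.548 and 0.199. Prl was counted in the last-named control and in fasted S662D replicate 1, but it was 0 in fed control replicate 6.

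**Figure D3:**
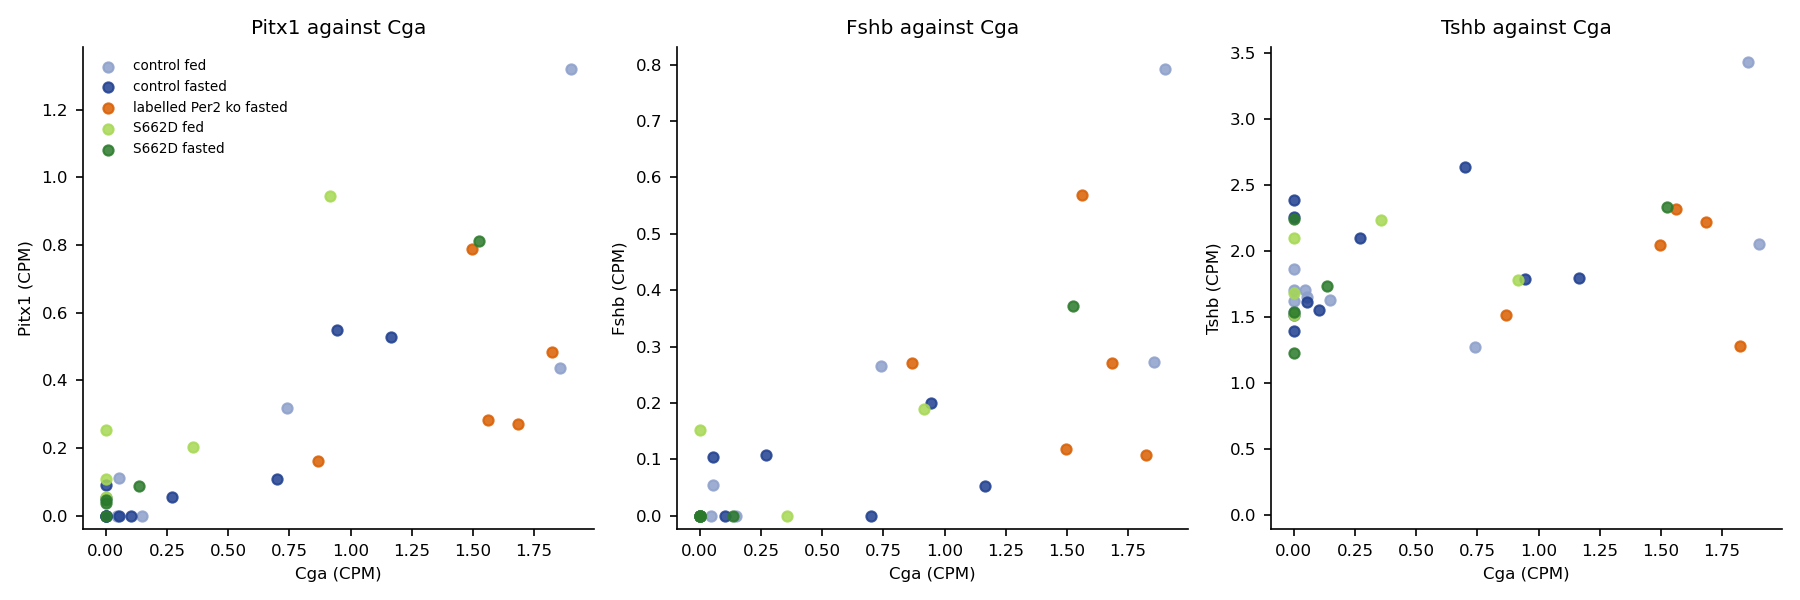
Pitx1, Fshb and Tshb (y axes, CPM, linear) against Cga (x axes, CPM) in the 35 libraries, coloured by group. Pitx1 and Fshb climb with Cga over the 35 libraries (rho 0.758 and 0.790), though Fshb does not among the 5 labelled knockout libraries, whereas Tshb stays at or above 1.23 CPM at every level of Cga (rho 0.317).

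Lhb and Tshb followed this trio less closely. Cga and Lhb had r = 0.495 and rho = 0.473 (permutation p = 0.00283 and p = 0.00469, adjusted 0.0198 and 0.0263), and r fell to 0.375 on deviations from the group means. In control replicates 6 to 10 it was -0.437 (permutation p = 0.195, n = 10), so the pooled relation did not hold within every set. Cga and Tshb had r = 0.340 and rho = 0.317 (permutation p = 0.0452 and p = 0.0637, adjusted 0.117 and 0.178). Tshb too differed between the sets. In control replicates 6 to 10 (n = 10) it had r = 0.649 with Cga, 0.726 with Pitx1 and 0.652 with Fshb (permutation p = 0.046, p = 0.0171 and p = 0.0497), with rho at 0.431, 0.537 and 0.440 (adjusted permutation p = 0.459 for each over the 30 relations within sets). In control replicates 1 to 5 the same r values were 0.324, 0.039 and -0.006. Prl and Fshb had r = 0.475 and rho = 0.518 (permutation p = 0.006 and p = 0.001, adjusted 0.0336 and 0.0070), a relation that rests on the 4 libraries with Prl. In all, 5 of 28 pairs had an adjusted Spearman p below 0.05. The share among pairs of all tested genes was not computed, so whether this count is unusual was not tested.

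**Figure D4:**
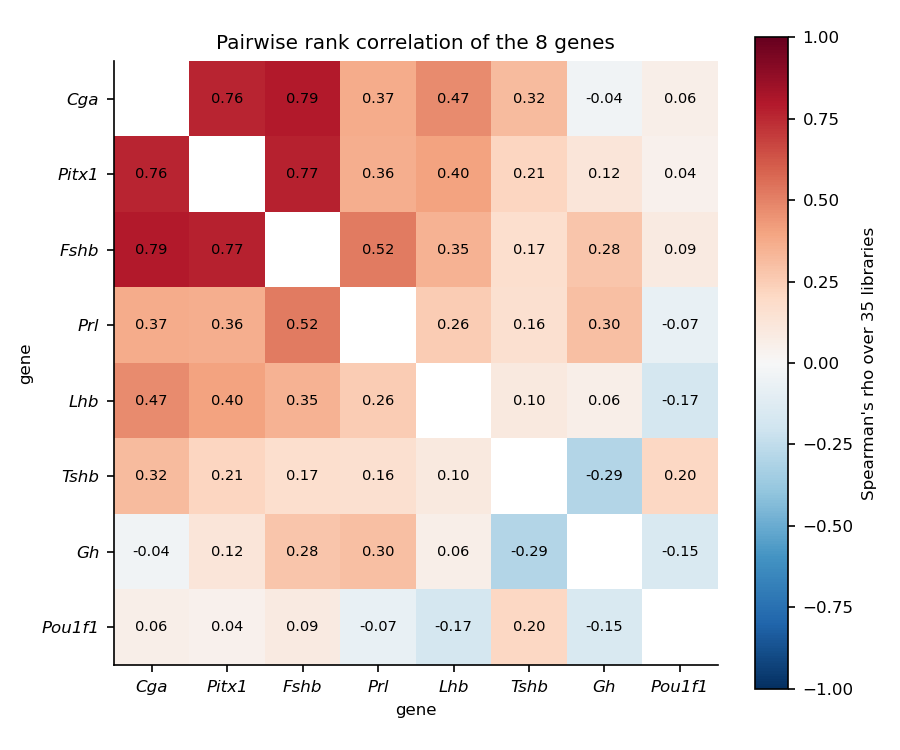
Spearman's rho (colour and printed value) between each pair of the 8 genes (both axes) over 35 libraries. Cga, Pitx1 and Fshb form a block at 0.76 to 0.79, and Tshb, Gh and Pou1f1 show no value above 0.32 with any of the 3.

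Outside the 8 genes, those most like Cga in rank across the 35 libraries included Cyp2f2 (rho 0.806), Slc26a7 (0.691), Dcn (0.675) and Ogn (0.675). Those most like Pitx1 included Cyp2f2 (0.798), Slc47a1 (0.740), Col6a2 (0.720) and Serping1 (0.708). These were the highest of all tested genes by a rule, so the values are descriptions. Dcn encodes the matrix proteoglycan decorin and Col6a2 a collagen VI chain. Slc26a7, an anion transporter gene, was at 1.45, 1.94, 0.706, 2.37 and 3.96 CPM in the labelled knockout, against a median of 0.549 in fasted controls and a highest control value of 3.04. It was not called in that comparison, with a fitted difference of 1.44 (SE 0.55, adjusted p = 0.759).

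**Figure D5:**
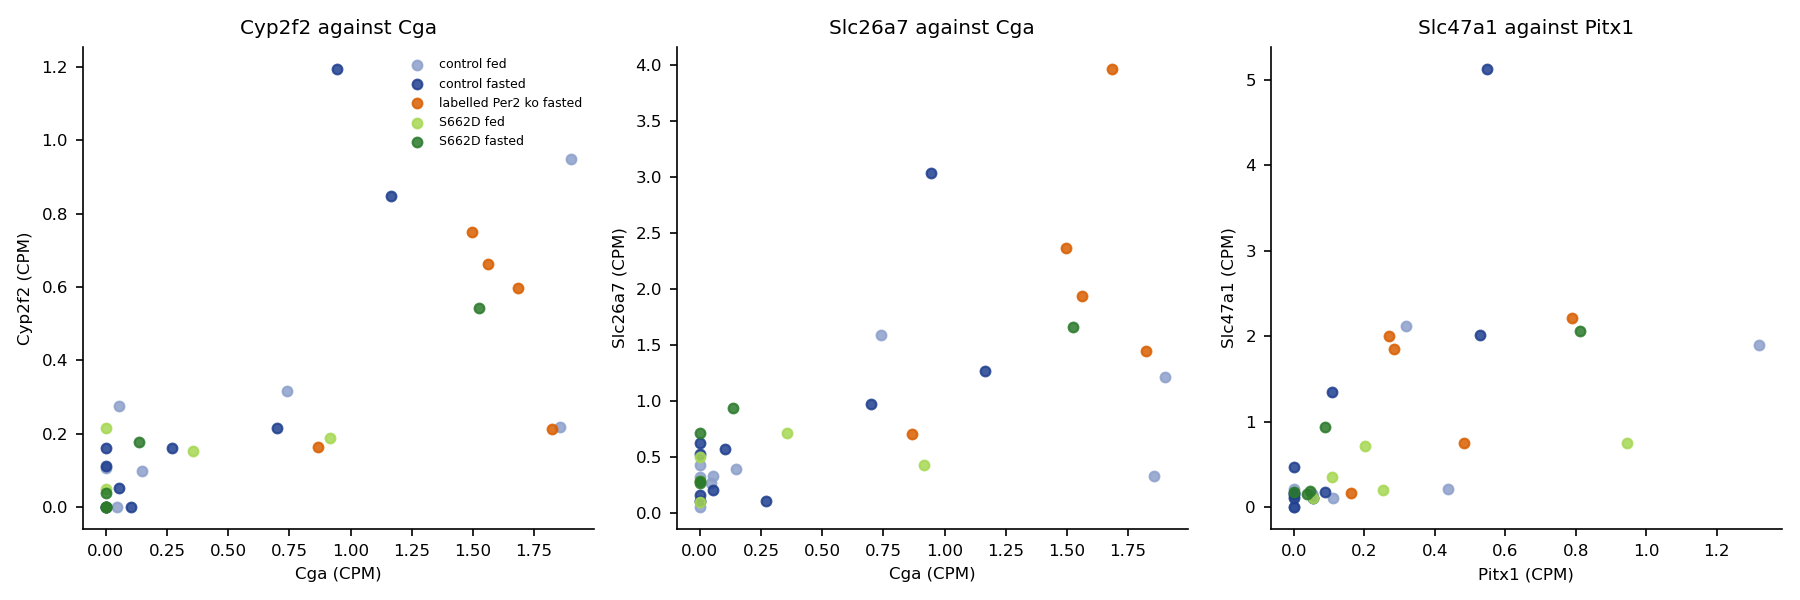
Cyp2f2 and Slc26a7 against Cga, and Slc47a1 against Pitx1 (both axes CPM, linear), in the 35 libraries coloured by group. All 3 genes are low in most libraries without Cga or Pitx1 and higher in libraries of several groups, with Spearman's rho from 0.691 to 0.806.

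Marker lists of other tissues were read beside these genes. The 7 markers of meninges and fibroblasts, all counted in every library, summed to 46.1 to 107 CPM in the labelled knockout with a median of 67.6 and to 41.0 to 98.8 in fasted controls with a median of 49.9. Over the 35 libraries this sum had r = 0.470 and rho = 0.436 with Cga (permutation p = 0.00499 and p = 0.0101, adjusted 0.0686 and 0.186) and r = 0.513 and rho = 0.507 with Pitx1 (permutation p = 0.00211 and p = 0.00251, adjusted 0.058 and 0.0808). The 5 haemoglobin and erythroid genes summed to 331 to 751 CPM in the labelled knockout with a median of 648 and to 375 to 795 in fasted controls with a median of 458, and had rho = 0.505 with Cga (permutation p = 0.00294, adjusted 0.0808) and r = 0.510 (permutation p = 0.00194, adjusted 0.058). Within control replicates 1 to 5, control replicates 6 to 10 and the 6 S662D libraries with the digit, the meninges sum had r = 0.551, 0.528 and 0.888 with Cga (permutation p = 0.101, 0.111 and, exact, 0.0333). Of the 55 relations of a member with a list, 0 had an adjusted Pearson or Spearman p below 0.05, and the part of either list in the level of Cga was not tested. Mitochondrial counts made up 6.96% to 9.08% in the labelled knockout, with a median of 7.66%, and 6.81% to 8.70% in fasted controls, with a median of 7.28%. Choroid plexus markers, Ttr among them, reached 299 CPM in the labelled knockout and 1570 in fasted controls, and their sum had rho = -0.028 with Cga (permutation p = 0.873). With Lhb this sum had r = 0.473 and rho = 0.380 (permutation p = 0.00414 and p = 0.0244, adjusted 0.0686 and 0.335). With Pitx1, Fshb and Tshb its rho was -0.014, -0.119 and -0.342 (permutation p = 0.939, 0.496 and 0.0445, the last 0.408 after adjustment).

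The other 15 pituitary genes gave little signal of their own. Hesx1, Ghrhr and Avpr1b, among them the receptor for growth hormone releasing hormone, never exceeded 3 counts in a library. A total of 8 of the 15 passed the filter and 0 of 8 were called in any comparison. In the labelled knockout against fasted controls their median log2 difference was 0.09, beside 0.00 over all genes tested, with 5 fitted higher and 3 lower. The differences ran from -0.18 for Pomc, the hormone gene of the corticotropes, to 0.66 for Tbx19, a factor of the same cells.

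The list of pars tuberalis, tanycyte and thyroid hormone genes followed the steps downstream of thyroid-stimulating hormone. Of its 9 genes 7 were tested, and 1 changed with fasting: Dio2, the deiodinase that activates thyroid hormone, rose by 0.50 in controls (SE 0.09, adjusted p = 0.00053 in edgeR's test) and by 0.70 in S662D mice (SE 0.13, adjusted p = 0.00072), while Tshb differed by 0.04 and -0.02 in the same comparisons. The interaction for Dio2 was 0.20 (SE 0.16, adjusted p = 0.832), which did not pass the test. Slco1c1, a thyroid hormone transporter, passed the test over all 5 groups (adjusted p = 0.0084) and no pairwise comparison. Against fasted controls the labelled knockout had 0 of 7 called, with Dio2 at 0.23 (SE 0.11, adjusted p = 0.817) and Tshr, the receptor of thyroid-stimulating hormone, at 0.18 (SE 0.22, adjusted p = 0.943). The 8 hypothalamic releasing factor genes, Ghrh, Sst, Trh, Gnrh1, Crh, Th, Avp and Oxt, were all tested and 0 of 8 were called in any comparison.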

How the data were processed

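PolyA RNA from 35 hypothalamus libraries was sequenced as paired reads of 150 bases. The authors deposited raw counts per gene and library. The counter was featureCounts 2.0.1 with GENCODE annotation of mm10, summed over gene names, per the file headers, which also show that multi-mapping reads were counted at each alignment and that strand was ignored. STAR 2.7.10b is named in the submitters' processing notes. Counting every alignment inflates genes with copies, and without strand the reads of bases shared by overlapping genes cannot be told apart.

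Depth was 17959586 to 37027342 counts per library, and no library was left out. Genes were filtered with filterByExpr (minimum count 10), which left 18063, and scaled with TMM (factors 0.964 to 1.02). A single model of group means over the 35 libraries was used in edgeR 4.0.16 (R 4.3.3, robust glmQLFit, then glmQLFTest), with Benjamini-Hochberg adjustment over all genes tested and calls at an adjusted p below 0.05. The fit was tested on simulated counts. Intervals use 30 degrees of freedom. CPM divides counts by TMM-scaled library size. Permutation tests used log2(CPM + 0.5), exact where a group had under 10 libraries and with 100000 resamples otherwise, two-sided. DESeq2 1.42.0, other scalings, filters, library sets and left-out libraries were tried as alternatives. Coordinates are those of the count tables (mm10, from 1).

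The members, marker lists and tests were chosen with earlier results of these data known. All 8 genes are named; of other lists, genes called in the pituitary, pars tuberalis and releasing factor lists are named, and for each tested member those among the 5 genes of highest Spearman's rho that can be named; some results are not reported here. Pomc, Tbx19, Tshr and the named markers of thalamus and hypothalamus were chosen after their values were seen. Further lists covered striatum (5 genes), cortex and hippocampus (6) and midbrain (3); 0 of their tested genes were called in the labelled knockout comparisons.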

Additional observations from a re-analysis of the deposited data

Results flagged for a closer look

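In 14 of the 40 sets of a gene and a group, the highest library stood apart from the rest of its group by Dixon's 95% criterion. Many of these sets hold only 0 besides, where any single count is set apart. The criterion is made for continuous values, so the number of sets carries no test. Fasted S662D replicate 1 was set apart in 4 genes at once, with 1.52 CPM of Cga, 0.373 of Fshb, 0.813 of Pitx1 and 0.305 of Prl. Fed control replicate 6 was set apart with 0.792 CPM of Fshb and 1.32 of Pitx1, while its Cga of 1.90 CPM had fed control replicate 4 beside it. Fed control replicate 4 was set apart with 3.44 CPM of Tshb, the highest of all libraries. Fed S662D replicate 2, the deepest library, was set apart with 0.944 CPM of Pitx1 and, at 2 counts, with 0.054 of Pou1f1. Fasted control replicate 1 was set apart with 0.797 CPM of Prl.

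The remaining values rest on 1 or 2 counts. They were 0.0543 CPM of Gh in labelled knockout replicate 3, 0.0506 of Gh in fed S662D replicate 1, 0.111 of Pou1f1 in fed control replicate 3 and 0.0543 of Pou1f1 in labelled knockout replicate 5. No labelled knockout library was set apart in Cga, Pitx1, Fshb, Lhb or Tshb.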

How the results depend on the processing

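Every comparison kept 0 of 4 tested members called under RLE size factors, library size only, DESeq2 and no robust estimation. Without the low-count filter, where all 8 were tested, it was 0 of 8. DESeq2 gave no adjusted p to the members in the labelled knockout against fasted S662D, so it could make no call there. With only the S662D libraries that carry the additional digit, 1 member was called there (Lhb 1.70 higher, adjusted p = 0.0083), beside 2986 of all genes. Leaving out 1 library at a time gave 0 to 2, the 2 without fasted S662D replicate 1. Over all 5 groups, 1 was called with those S662D libraries only, beside 5701 of all genes. The unadjusted permutation test put 3 of 8 members below 0.05 for the labelled knockout against fasted controls (Cga, Lhb and Fshb). Against fasted S662D it put 2 of 8 there (Cga and Lhb). Of all tested genes, 5.77% and 16.4% lay below 0.05. These shares are over the genes that passed the filter, which include 4 of the members but not Fshb, so Fshb has no share beside it. Among those 4 members, 2 lay below 0.05 in each comparison (Cga and Lhb). Adjusted over all genes, an alternative chosen after seeing the data, the permutation test called 0. The count of 5 correlated pairs was 5 under each of 3 alternatives. The fitted difference of Cga in the labelled knockout was 2.02 to 2.66 against fasted controls when 1 library was left out and 1.70 to 5.40 against fasted S662D, with the lowest adjusted p at 0.529 and 0.0279; that of Pitx1 against fasted S662D was 0.52 to 3.21.

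With only control replicates 1 to 5, Lhb on fasting in controls was 0.18, Tshb in fed S662D against control -0.036 and Cga in fasted S662D against control -0.14, all with turned sign. With only control replicates 6 to 10, Tshb was 0.26 in the labelled knockout against fasted controls, -0.18 on fasting in controls and 0.21 in fasted S662D against control. With only the S662D libraries that carry the digit, fasting in S662D gave -2.92 for Cga, fasted S662D against control gave -2.73 for Cga and -1.14 for Pitx1, and fed S662D against control -0.0069 for Tshb. With only those without it, fasting in S662D gave 0.031 for Lhb, 0.043 for Tshb and 0.77 for Pitx1, the labelled knockout against fasted S662D -0.033 for Tshb, fed S662D against control -0.014 for Pitx1, and fasted S662D against control 0.39 for Lhb and 0.025 for Tshb. Library size only gave -0.0032 for Tshb in fed S662D against control, and the permutation scale -0.085 for Cga in fasted S662D against control. The cause was not tested.

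Leaving out 1 library at a time also turned signs. For fasting in controls the ranges were -1.001 to 0.064 (Cga), -1.35 to 0.28 (Pitx1), -0.15 to 0.031 (Lhb) and -0.021 to 0.18 (Tshb). For fasting in S662D they were -3.13 to 2.01 (Cga), -3.00 to 0.43 (Pitx1) and -0.13 to 0.083 (Tshb). For S662D against control they were -2.41 to -0.02 (Cga, sign kept), -0.57 to 1.65 (Pitx1), -0.13 to 0.39 (Lhb) and -0.066 to 0.15 (Tshb) in fed mice, and -3.22 to 0.60 (Cga), -1.64 to 1.204 (Pitx1) and -0.17 to 0.045 (Tshb) in fasted mice. For Tshb in the labelled knockout they were -0.096 to 0.096 against fasted controls and -0.055 to 0.16 against fasted S662D.

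Replicate numbers did not pair the samples: correlations of same-numbered libraries' deviations ran from -0.268 to 0.27 over the 6 pairwise comparisons. The highest in each was 0.0747 (fasting in controls), 0.209 (fasting in S662D), 0.27 and 0.159 (S662D against control, fed and fasted), and 0.0744 and 0.055 (labelled knockout against fasted controls and fasted S662D), and each comparison also had pairs below 0. At most 1 library per comparison correlated best with its own number. With the replicate block, 0 members were called in every comparison, Tshb in fed S662D against control was -0.14 and Cga in fasted S662D against control was -0.25.

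Counts over all genes moved more. The labelled knockout against fasted controls had 5 called genes, 2 with control replicates 1 to 5 and 99 with 6 to 10. Against fasted S662D it had 1325. Fasting in controls had 701, 1315 and 304 in the control sets. S662D against control had 847 in fed mice (1426 with DESeq2, 1741 and 33 in the control sets, 3106 with the digit libraries, 66 to 1667 with 1 library left out) and 1007 in fasted mice (1680, 48, 3148 and 154 to 1802). The interaction had 0, 486 with control replicates 1 to 5 and 9 with the digit libraries, and the test over 5 groups 3627. Depth limits Cga, Pitx1 and Fshb, which stood at 0 in 14, 9 and 19 of 35 libraries.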

Other observations

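The genes most like Lhb and Tshb across libraries were others than those most like Cga and Pitx1. For Lhb they were Gm42853 (Spearman's rho 0.618 over 35 libraries), Ankrd66 (0.616), Frem1 (0.604), Nek11 (0.600) and Csrp2 (0.598). For Tshb they were Tax1bp1 (0.632), Oprk1 (0.622), which encodes the kappa opioid receptor, Zdhhc15 (0.611), Mb21d1 (0.610) and Elovl4 (0.597). These are the highest values among all tested genes and carry no test. The labelled knockout had the highest group median of Gm42853, at 1.88 CPM against 0.758 to 1.38 in the other groups, whereas Oprk1 had medians of 19.4 to 21.1 CPM in all 5 groups.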
